A study of Mus musculus with 3 samples.

Results

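Integrin and laminin genes were described across the cell types of the ascending aorta of WT mice, Fbn1 mgR/mgR (mgR) mice and mgR mice given losartan (mgR-LOS). Members were chosen by symbol alone, as every gene named Itga, Itgb, Lama, Lamb or Lamc followed only by digits, together with *Itgav*, *Itgal*, *Itgam*, *Itgax*, *Itgae*, *Itgad* and *Itga2b*. The rule found 37 of the 32285 genes counted, of which 18 encode integrin α chains, 8 integrin β chains, 5 laminin α chains, 3 laminin β chains and 3 laminin γ chains. The rule itself uses no measured value, but it was set with earlier results of these data known.

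Each condition was 1 droplet library of cells from pooled aortas of male C57BL/6J mice at P45, from 3 WT, 3 mgR and 4 mgR-LOS mice. The mgR allele is a hypomorphic *Fbn1* allele carried in every cell, and the mgR-LOS mice drank losartan, an angiotensin type 1 receptor blocker, at 0.6 g/L from P16. Whether the untreated mutants were given vehicle is not stated in the labels. With 1 library per condition there was no replicate, so no test was made, and a difference between libraries cannot be told apart from differences between mice, digestions or library preparations.

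Integrins are heterodimers of an α and a β chain that span the membrane and link the cytoskeleton to the matrix or to other cells. The α chain largely sets the ligand: α1, α2, α10 and α11 with β1 bind collagens, α3, α6 and α7 bind laminins, α5, α8 and αv bind proteins with an RGD motif such as fibronectin and vitronectin, α4 and α9 bind VCAM-1 and other ligands, and the αL, αM, αX, αD and αE chains belong to leukocytes. Laminins are heterotrimers of an α, a β and a γ chain and form the network of basement membranes. In the aortic media each smooth muscle cell (SMC) lies within a basement membrane and is tied through integrins to the surrounding matrix, in which fibrillin-1 microfibrils carry an RGD site.

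The RefSeq table of promoters (GRCm38.p6) held a window for 23 of the 37 members, and 3 are shown because their genes mark the contrasts below: *Itga8* the SMC, *Itgam* the macrophage, and *Lamb1* the laminin chain with the largest ratio of mgR to WT SMCs among those at 10 CPM or more in either. The windows lie upstream of the transcription start, of up to 250 bases, and that of *Lamb1* stops before the start given by GENCODE. Capitals mark GAGGAAG, a PU.1-type motif, and GGGCGG, the GC box, searched on both strands, so a GC box on the other strand reads CCGCCC.
Itga8, chr2:12301945-12302194, minus strand: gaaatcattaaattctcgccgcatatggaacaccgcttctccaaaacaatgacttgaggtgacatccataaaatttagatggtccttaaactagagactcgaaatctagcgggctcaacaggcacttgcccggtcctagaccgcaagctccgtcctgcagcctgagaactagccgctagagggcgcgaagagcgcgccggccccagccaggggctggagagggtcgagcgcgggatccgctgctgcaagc
Itgam, chr7:128062390-128062639, plus strand: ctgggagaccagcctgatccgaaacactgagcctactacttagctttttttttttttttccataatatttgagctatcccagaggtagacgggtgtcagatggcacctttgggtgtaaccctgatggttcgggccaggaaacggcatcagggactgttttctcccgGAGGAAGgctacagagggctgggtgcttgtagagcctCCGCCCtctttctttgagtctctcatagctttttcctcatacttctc
Lamb1, chr12:31265043-31265233, plus strand: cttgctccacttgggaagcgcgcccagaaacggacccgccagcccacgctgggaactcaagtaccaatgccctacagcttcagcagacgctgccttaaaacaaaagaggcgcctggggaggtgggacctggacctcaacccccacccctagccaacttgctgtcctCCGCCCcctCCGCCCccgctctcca
The *Itgam* window held 1 GAGGAAG, 77 bases before the start, and 1 GC box. The *Lamb1* window held 2 GC boxes and the *Itga8* window held neither motif. GAGGAAG occurred in 10.6% of all 32851 promoter windows of the full 250 bases and in 7 of the 26 member windows, those of 7 of the 23 members. The GC box occurred in 32.7% of all windows and in 9 of the 26 member windows, those of 8 of the 23 members. These matches describe the letters and are no measure of binding.

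A cell passed when it had 600 to 5000 genes and no more than 10% of UMIs from mitochondrial genes, which left 5361 WT, 8076 mgR and 12721 mgR-LOS cells with median depths of 13636, 12410.5 and 8334 UMIs. Cell types were gated on fixed marker panels after each cell was thinned to 1000 UMIs, with panel thresholds set after the data were seen. The SMC gate held 3663 WT, 3161 mgR and 8021 mgR-LOS cells, the fibroblast gate 1292, 2475 and 3074, the endothelial cell (EC) gate 101, 185 and 148, and the macrophage gate 87, 908 and 536, in the same order. *Fbn1* was at 361, 150 and 117 CPM (UMIs of the gene scaled to a total of 1e+06) over all cells of the WT, mgR and mgR-LOS libraries, lower in both mutant libraries. The libraries shared between 22 and 46 cell barcodes per pair. Levels below are summed UMIs of a gate as CPM in the order WT, mgR and mgR-LOS. Intervals are exact 95% Poisson intervals for levels and exact conditional binomial intervals for ratios, and cover counting error only. Each transcript is counted at its 3′ end, so CPM was not divided by gene length.

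The members together took 0.404% of WT, 0.351% of mgR and 0.355% of mgR-LOS UMIs. Of the 37 members, 27 reached 10 CPM in an SMC, fibroblast, EC or macrophage gate of all 3 libraries, and 25 of these had the same gate with the highest level in every library. SMCs led for *Itga3*, *Itga5*, *Itga7*, *Itga8*, *Itga9*, *Itgb1*, *Itgb3*, *Lama5* and *Lamb2*. Fibroblasts led for *Itgav*, *Itga10*, *Itga11*, *Itgb8*, *Lama2*, *Lamb1*, *Lamc1* and *Lamc3*. ECs led for *Itga6*, *Itgb4* and *Lama4*, and macrophages led for *Itga4*, *Itgal*, *Itgam*, *Itgax* and *Itgb2*. The lead over the second gate was not clear of counting error for *Itga3* in mgR-LOS, *Itgb3* in mgR, *Lama5* in WT and *Lamb1* in mgR. In each of these the second gate was ECs, and the interval of the ratio included 1. The leading gate of *Itga1* and *Itgb5* changed between libraries.

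**Figure D1:**
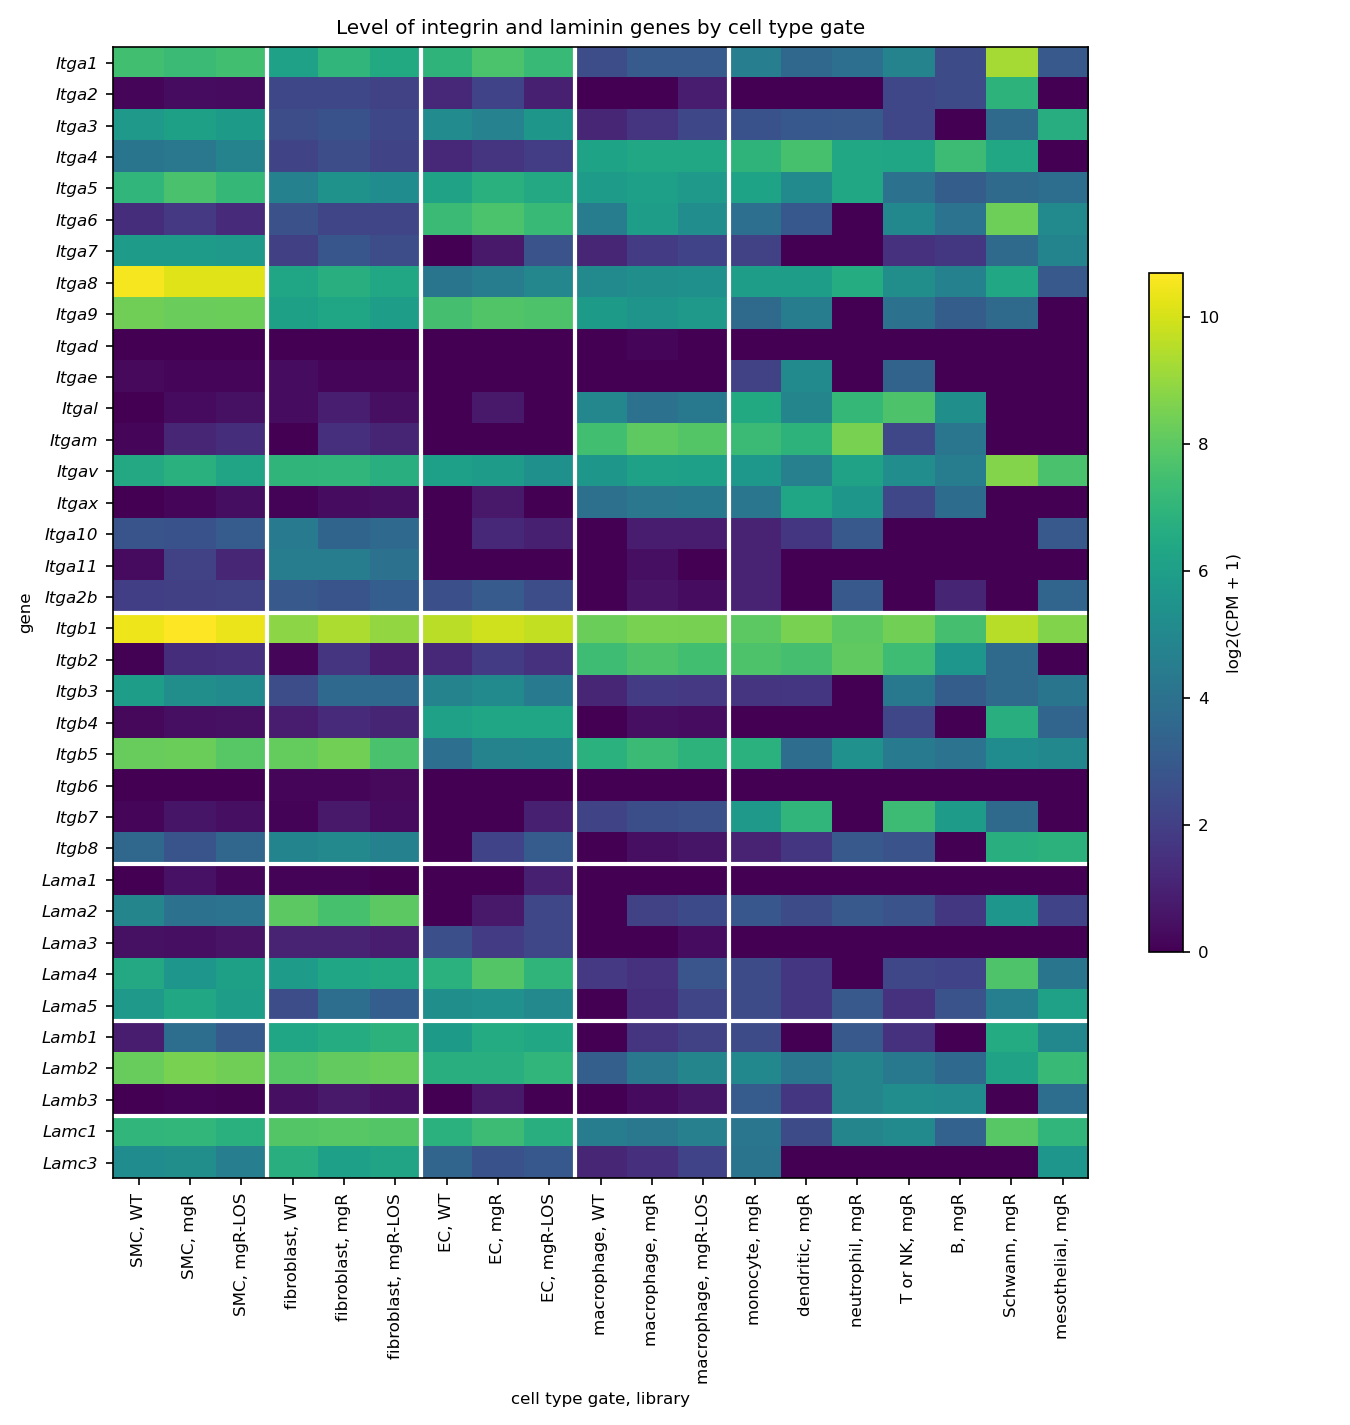
Levels of the members as log2(CPM + 1) by colour, with genes in rows and, in columns, the SMC, fibroblast, EC and macrophage gates of the WT, mgR and mgR-LOS libraries followed by the 7 smaller gates of the mgR library. *Itga8* and *Itgb1* are the strongest rows of the SMC columns, and *Itgal*, *Itgam*, *Itgax* and *Itgb2* stand out in the immune columns.

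The SMC integrins were dominated by *Itgb1* and *Itga8*. *Itgb1* (chr8:128685654-128733200, GRCm38) encodes the β chain shared by the collagen, laminin and many fibronectin receptors. It was at 1361 CPM in WT SMCs, 1656 CPM in mgR SMCs and 1351 CPM in mgR-LOS SMCs. In ECs *Itgb1* was at 775, 969 and 834 CPM, in fibroblasts at 457, 660 and 500 CPM, and in macrophages at 310, 376 and 367 CPM. The order SMC, EC, fibroblast and macrophage therefore held in each library, and in all 4 gates the mgR library had the highest level, although in macrophages the interval of the ratio of mgR-LOS to mgR, 0.974 (0.913 to 1.04), included 1.

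*Itga8* (chr2:12106632-12301922) encodes the α chain of α8β1, a receptor for nephronectin and other RGD proteins. It was at 1477 CPM (1466 to 1487) in WT SMCs, 1153 CPM (1144 to 1163) in mgR SMCs and 1139 CPM (1132 to 1147) in mgR-LOS SMCs. The WT level lay above both mutant levels, by less than 1.5-fold, and the intervals of the mutant libraries overlapped. At 1000 UMIs per cell, *Itga8* was seen in 74.0%, 65.0% and 64.9% of SMCs, against 99.5%, 98.0% and 98.8% without thinning at the libraries' own depths. Fibroblasts held 78.5, 102 and 84.2 CPM of *Itga8*.

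Some *Itga8* was also counted in cells that are neither SMCs nor fibroblasts, together with SMC marker transcripts. In macrophages the gene was at 33.9, 39.3 and 40.4 CPM, while the SMC marker panel there stood at 1.63%, 2.56% and 3.13% of its SMC level, a proportion that for *Itga8* comes to 24.0, 29.5 and 35.6 CPM, below the measured level in each library. In ECs *Itga8* was at 16.6, 22.4 and 30.2 CPM, below the 31.6, 33.3 and 46.2 CPM that the same proportion gives. The share of macrophages with an *Itga8* UMI at 1000 UMIs was 2.30%, 3.19% and 5.60%. Schwann cells of mgR and mgR-LOS, at 83.2 and 120 CPM, and mgR monocytes, at 63.3 CPM, also lay above the 42.5, 64.5 and 38.5 CPM that the proportion gives there. In those Schwann gates 3 UMIs come to 35.7 and 32.6 CPM. WT T or NK cells (77.2 against 45.1), mgR neutrophils (97.9 against 95.35) and mgR-LOS mesothelial cells (29.3 against 28.0) lay above too. The level was below in WT Schwann cells (55.6 against 67.1) and mgR T or NK, B and mesothelial cells (38.3, 25.2 and 6.83 against 44.1, 31.0 and 18.9). It was also below in mgR-LOS T or NK cells (28.0 against 47.1) and neutrophils (44.7 against 81.8). In WT Schwann cells, mgR mesothelial cells and mgR-LOS neutrophils 3 UMIs come to 83.5, 10.2 and 134 CPM, more than the *Itga8* level there. Counting error was not weighed in these comparisons with the proportion, macrophages and ECs included, and the smaller differences may lie within it. How much of the *Itga8* in these cells came from free RNA was not tested.

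Among collagen receptors, *Itga1*, which pairs with β1, was widespread. It was at 174, 154 and 176 CPM in SMCs, at 122, 200 and 152 CPM in ECs and at 67.8, 130 and 88.3 CPM in fibroblasts. ECs had the highest level of *Itga1* among these gates in mgR, and SMCs had it in WT and mgR-LOS. Schwann cells, with 10, 18 and 27 cells, held more of it than any of those gates, at 584, 618 and 489 CPM. *Itga10* and *Itga11*, further collagen-binding chains, were led by fibroblasts, at 21.1, 10.1 and 11.4 CPM for *Itga10* and 21.6, 22.3 and 14.99 CPM for *Itga11*. *Itga2* reached 20 CPM in Schwann cells, at 55.6, 119 and 43.5 CPM, and in none of the 4 large gates. In the Schwann gates 3 UMIs come to 83.5, 35.7 and 32.6 CPM. The WT level of *Itga2* there thus rested on fewer than 3 UMIs, and the mgR-LOS level lay near that floor.

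The laminin-binding chains split between cell types. *Itga7*, the muscle laminin receptor chain, was at 57.8, 59.8 and 54.7 CPM in SMCs, and *Itga3* at 52.0, 67.3 and 55.2 CPM there. *Itga3* was also seen in ECs at 34.6, 25.8 and 49.1 CPM and in mesothelial cells at 99.0 CPM in mgR and 95.1 CPM in mgR-LOS. *Itga6* (chr2:71745616-71858416) was at 156, 203 and 150 CPM in ECs and at 321 CPM in mgR and 228 CPM in mgR-LOS Schwann cells. *Itgb4*, which pairs with α6 alone, followed the same cell types, at 67.9, 76.1 and 80.3 CPM in ECs and 55.6, 107 and 87.0 CPM in Schwann cells. Its WT Schwann level lay below the 83.5 CPM that 3 UMIs come to there.

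Of the RGD-binding chains, *Itga5* and *Itgav* were above 20 CPM in every large gate. *Itga5* (chr15:103344286-103366763), the classical fibronectin receptor chain, was at 131, 199 and 138 CPM in SMCs, at 70.4, 108 and 86.9 CPM in ECs, at 58.0, 64.7 and 53.2 CPM in macrophages and at 25.3, 42.2 and 36.3 CPM in fibroblasts. *Itgav* was highest of these gates in fibroblasts, at 128, 131 and 104 CPM, with 86.8, 109 and 74.7 CPM in SMCs, 65.3, 59.8 and 40.6 CPM in ECs and 49.6, 69.3 and 64.7 CPM in macrophages. *Itgav* stood higher still in Schwann cells, at 222, 416 and 304 CPM.

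The β chains that pair with αv differed in place. *Itgb5* was at 295, 314 and 241 CPM in SMCs, at 288, 342 and 198 CPM in fibroblasts and at 111, 154 and 118 CPM in macrophages, but at 14.1, 26.5 and 27.4 CPM in ECs. *Itgb3* (chr11:104608000-104670476) was at 60.2, 37.9 and 33.4 CPM in SMCs and 26.9, 34.0 and 19.8 CPM in ECs. *Itgb8* (chr12:119158022-119238802), whose αvβ8 dimer binds latent TGF-β, was at 27.0, 31.4 and 25.2 CPM in fibroblasts and at 116 CPM in mgR mesothelial cells. *Itgb6* had 2, 3 and 7 UMIs in the WT, mgR and mgR-LOS libraries.

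*Itga9*, a receptor chain for tenascin-C and VCAM-1, was at 334, 307 and 315 CPM in SMCs, at 186, 220 and 207 CPM in ECs, at 66.9, 77.0 and 63.2 CPM in fibroblasts and at 55.6, 45.9 and 52.4 CPM in macrophages. *Itga4* was at 72.6, 80.6 and 84.2 CPM in macrophages and 16.6, 18.2 and 26.7 CPM in SMCs. Higher *Itga4* levels were found in mgR dendritic cells at 189 CPM, mgR B cells at 160 CPM and mgR monocytes at 122 CPM.

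The leukocyte integrins were those whose partners are β2 or β7. *Itgam* (chr7:128062640-128118491), the αM chain of the complement receptor Mac-1, was at 175, 262 and 228 CPM in macrophages, and *Itgb2*, its partner, at 167, 206 and 176 CPM. In neutrophils *Itgam* was higher still, at 371 CPM (mgR) and 358 CPM (mgR-LOS), above its level in macrophages of those libraries. *Itgal*, the αL chain of LFA-1, was at 335, 207 and 154 CPM in T or NK cells and at 30.2, 15.5 and 19.2 CPM in macrophages. *Itgax*, the αX chain, was highest in mgR dendritic cells at 79.1 CPM. *Itgae*, which pairs with β7, stood at 32.97 CPM in dendritic cells of mgR and 124 CPM in those of mgR-LOS, and *Itgb7* was at 244.5, 161 and 229 CPM in T or NK cells and at 132 CPM in mgR dendritic cells. *Itga2b*, the platelet chain, reached 20 CPM in no gate of at least 10 cells, and *Itgad* had 0, 3 and 1 UMIs in the 3 libraries, which for WT allows up to 3 UMIs.

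Within macrophages, levels in subsets are given for selected members only, *Itgax*, *Itga6* and *Itgb5*. Cells rich in *Folr2*, *F13a1* and related genes, called resident-type here, made up 47.1%, 39.1% and 50.4% of the gate. *Itgax* was at 0, 1.20 and 1.496 CPM in them against 28.3, 30.1 and 39.8 CPM in other macrophages. *Itga6* was at 12.4, 10.5 and 7.98 CPM in resident-type against 30.6, 95.8 and 69.8 CPM in other macrophages, and *Itgb5* at 44.7, 98.7 and 71.3 CPM against 174, 193 and 173 CPM. All 3 genes were therefore lower in the resident-type subset in each library, among macrophages that differed in many genes: in mgR, 13.8% of genes were at least 1.5-fold higher and 8.49% at least 1.5-fold lower in the resident-type subset.

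The laminin chains gave each aortic cell type its own make-up. *Lamb2* and *Lamc1*, the β2 and γ1 chains, were the leading β and γ transcripts of SMCs and fibroblasts in every library. *Lamb2* (chr9:108479736-108490530) was at 291, 377 and 330 CPM in SMCs, 244, 280 and 298 CPM in fibroblasts and 106, 103 and 130 CPM in ECs. *Lamc1* was at 130, 135 and 108 CPM in SMCs, 230, 238 and 229 CPM in fibroblasts and 113, 158 and 102 CPM in ECs, with 21.8, 18.5 and 24.3 CPM in macrophages.

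The α chains differed most. Fibroblasts held *Lama2* (chr10:26980036-27619758), the α2 chain of muscle and nerve laminins, at 257, 193 and 253 CPM, which was 79.6%, 67.6% and 71.9% of their laminin α UMIs. ECs held *Lama4* (chr10:38965515-39110188), the α4 chain of vascular laminins, at 113, 229 and 126 CPM, or 71.5%, 83.6% and 75.6% of α UMIs, with *Lama5* (chr2:180176373-180225859) at 39.7, 41.5 and 32.1 CPM. *Lama4* was at 59.96, 78.2 and 90.03 CPM in fibroblasts. SMCs divided their α UMIs between *Lama4* and *Lama5*: *Lama4* took 50.8%, 32.8% and 46.2% and *Lama5* took 32.1%, 56.4% and 42.5%. *Lama5* was thus the leading α chain of SMCs in mgR, and *Lama4* led in WT and mgR-LOS.

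*Lamb1* (chr12:31265234-31329644), the β1 chain, was at 76.4, 96.3 and 117 CPM in fibroblasts and 55.0, 95.2 and 82.2 CPM in ECs, but at 0.829, 13.4 and 7.24 CPM in SMCs. It took 34.1%, 47.9% and 38.7% of β UMIs in ECs, 23.8%, 25.5% and 28.2% in fibroblasts and 0.284%, 3.44% and 2.15% in SMCs. *Lamc3* (chr2:31887291-31946539), the γ3 chain, was at 102, 65.4 and 74.1 CPM in fibroblasts and 35.3, 37.7 and 23.1 CPM in SMCs, or 30.4%, 21.2% and 24.0% of fibroblast γ UMIs. *Lama5* reached 68.3 CPM in mgR mesothelial cells. *Lamb3*, the epithelial β3 chain, reached 34.3 CPM in mgR B cells and 36.4 CPM in mgR T or NK cells. *Lama1* had 2, 22 and 11 UMIs in all, and *Lama3* reached 20 CPM in no gate of at least 10 cells.

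**Figure D2:**
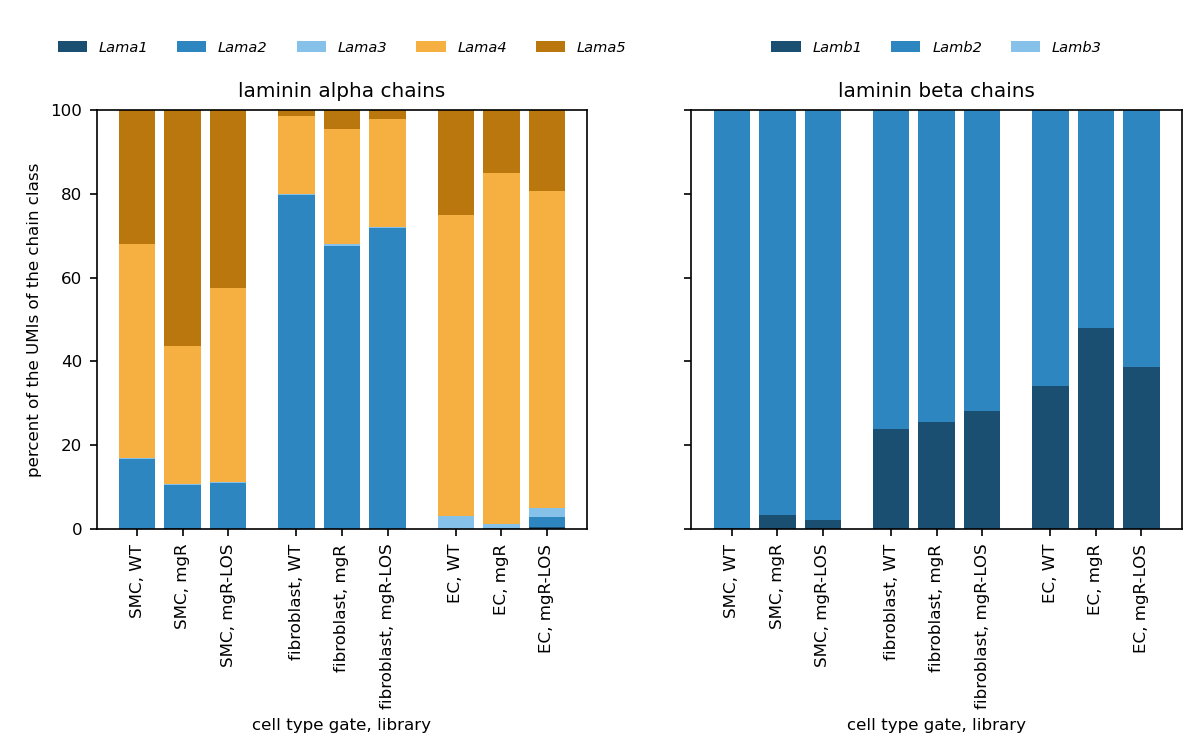
Percent of the UMIs of the laminin α and β chains (vertical axis) taken by each gene, as stacked bars, for the SMC, fibroblast and EC gates of each library. *Lama2* fills most of the fibroblast α bars, *Lama4* most of the EC α bars, and *Lama5* reaches 56.4% of the mgR SMC α bar.

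Fibroblasts marked by *Pi16*, *Dpp4* and *Sema3c*, an adventitial type, were 17.5%, 16.9% and 17.1% of the fibroblast gate and differed in the levels of several laminin chains. *Lama2*, *Lamb2* and *Lamc1* led the α, β and γ UMIs of both these and other fibroblasts in each library. *Lama2* took 66.1%, 49.55% and 50.5% of α UMIs in *Pi16* fibroblasts against 84.5%, 73.3% and 79.0% in other fibroblasts. In *Pi16* fibroblasts *Lama4* took 33.3%, 48.5% and 48.0%. The lead of *Lama2* over *Lama4* there was not clear of counting error in mgR and mgR-LOS, where the intervals overlapped. *Lamc1* was at 509, 499 and 447 CPM in them against 176, 182 and 178 CPM in other fibroblasts. *Lama4* was at 177, 192 and 224 CPM against 37.5, 54.2 and 58.9 CPM, and *Lamb1* at 204, 155 and 205 CPM against 51.9, 83.9 and 96.8 CPM. These α4, β1 and γ1 chains were all higher in *Pi16* fibroblasts in each library. *Lamc3* ran the other way, at 39.5, 2.04 and 7.01 CPM against 114, 78.8 and 89.7 CPM, as did *Itga1*, at 13.7, 23.6 and 25.4 CPM against 78.2, 153 and 103 CPM. Over all genes, 10.9% were at least 1.5-fold higher and 12.2% at least 1.5-fold lower in *Pi16* than in other fibroblasts of the mgR library.

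ECs likewise held subsets with different levels of some chains. Lymphatic ECs, defined on *Prox1*, *Mmrn1*, *Ccl21a* (a pair of rows share this symbol), *Reln* and *Flt4*, numbered 13, 51 and 23 cells, and capillary ECs, defined on *Fabp4*, *Cd36*, *Rgcc* and *Gpihbp1*, 18, 27 and 24 cells. *Itga1* was at 376, 598 and 493 CPM in capillary ECs against 64.8, 149 and 96.9 CPM in the other ECs, which are neither lymphatic nor capillary. *Itga6* was at 497, 588 and 433 CPM against 74.0, 57.8 and 82.9 CPM. *Itga9* had the opposite order, at 52.7, 34.9 and 47.5 CPM in capillary ECs against 204, 239 and 250 CPM in the other ECs. *Lama4* was highest in lymphatic ECs, at 306, 495 and 224 CPM, then capillary ECs, at 135.5, 184.5 and 154 CPM, then the other ECs, at 68.5, 79.1 and 92.7 CPM. In the mgR library, 21.4% of genes were at least 1.5-fold higher and 31.9% lower in capillary than in the other ECs. For lymphatic against the other ECs of that library these shares were 26.6% and 21.4%.

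**Figure D3:**
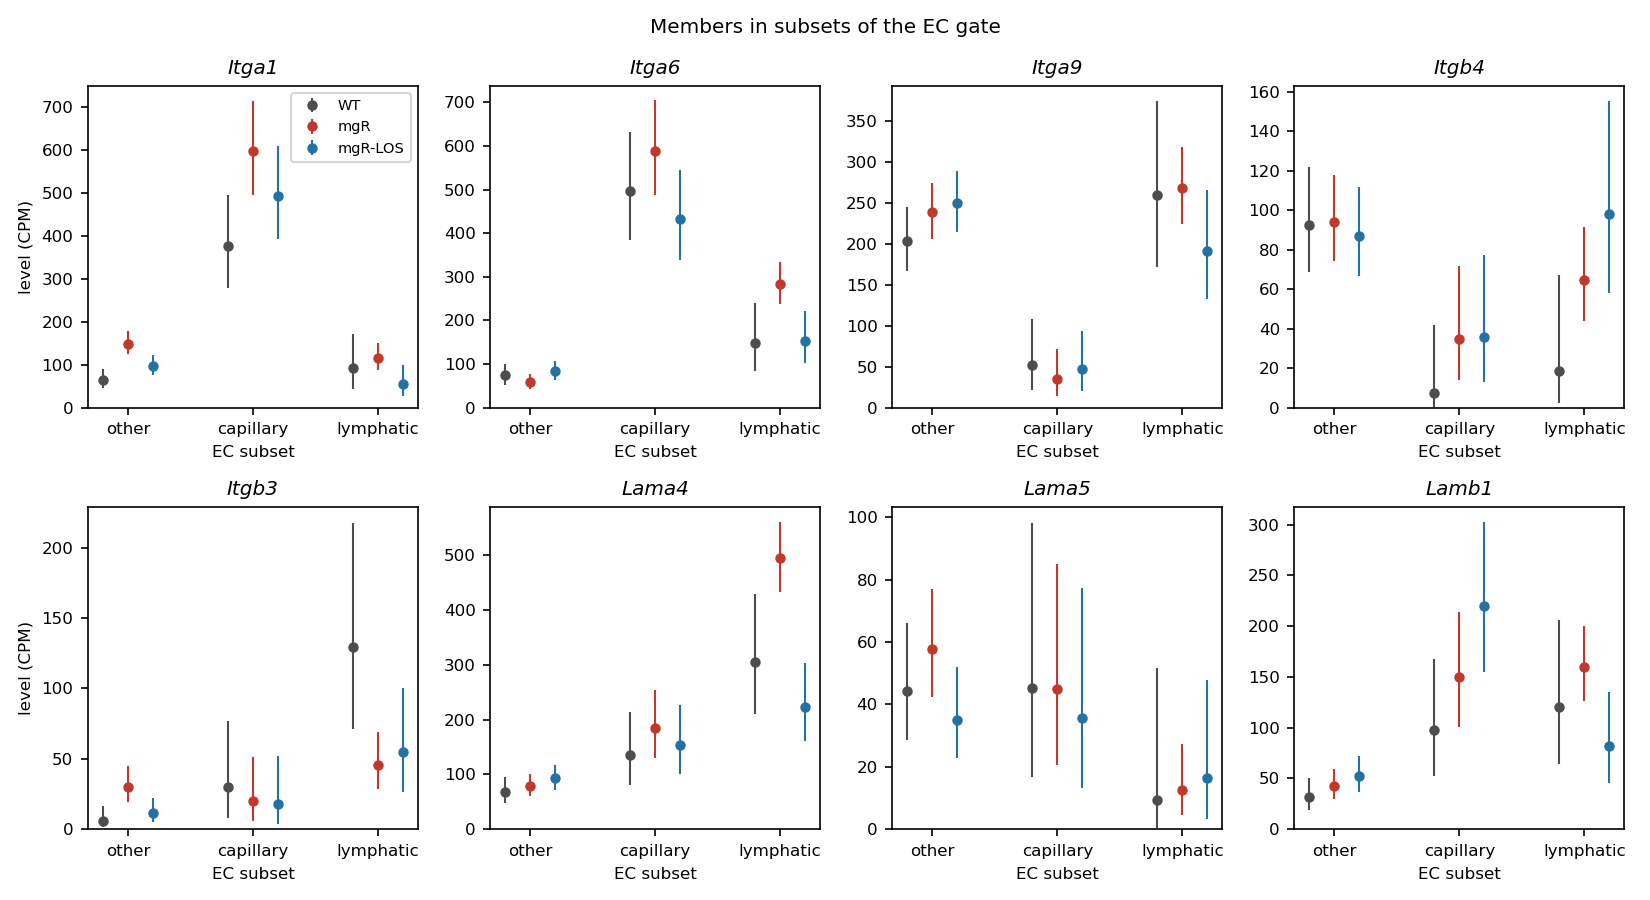
CPM (vertical axis) of *Itga1*, *Itga6*, *Itga9*, *Itgb4*, *Itgb3*, *Lama4*, *Lama5* and *Lamb1* in the other, capillary and lymphatic ECs of the WT, mgR and mgR-LOS libraries, with exact 95% Poisson intervals as bars. *Itga1* and *Itga6* are highest in capillary ECs, and *Lama4* is highest in lymphatic ECs in each library.

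The first comparison set mgR beside WT and asks how these chains differ with the *Fbn1* mutation. A gene was called at a ratio of at least 1.5 or at most 1/1.5, among genes at 10 CPM or more in either library. In SMCs 19 members were compared and 3 were called higher in mgR, *Itga5*, *Lama5* and *Lamb1*, while 4 were called lower, *Itgb3*, *Itgb8*, *Lama2* and *Lama4*. *Lamb1* and *Itgb8* passed the 10 CPM limit only in the library where they were higher, so their call is tied to that limit, as are 7 of the calls given below. Over all 7631 genes compared in SMCs, 5.22% were called higher and 4.06% lower. The median log2 ratio of the members was 0.09, against -0.01 over all genes.

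Among the 19 members compared, the largest SMC ratio was that of *Lamb1*. WT SMCs held 43 UMIs of it, or 0.829 CPM (0.600 to 1.12), mgR SMCs 636 UMIs, or 13.4 CPM (12.4 to 14.5), and mgR-LOS SMCs 524 UMIs, or 7.24 CPM (6.63 to 7.88). The 3 intervals did not overlap, with mgR highest and WT lowest. The ratio of mgR to WT was 16.2 (11.9 to 22.6). SMCs with a *Lamb1* UMI were 0 of 3663 in WT at 1000 UMIs per cell, which allows a share of up to 0.101% (exact binomial), and 1.55% in mgR, against 1.04% and 13.8% without thinning. *Lamb1* was far lower in mgR SMCs than in mgR fibroblasts, and the fibroblast panel, with 0 of its 8 genes at 0, summed to 3510 CPM in WT and 4288 CPM in mgR SMCs.

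The *Lamb1* difference was also measured in parts of the SMC gate. SMCs marked by *Vcam1* or *Spp1* numbered 3 in WT, 62 in mgR and 23 in mgR-LOS. Cells of the gate rich in *Rgs5* and related genes numbered 14, 13 and 17. Without both subsets the ratio was 15.3 (11.2 to 21.4). Within the 8 clusters of which at least 90% of cells fell in the SMC gate, which held 3624 WT and 2650 mgR SMCs, *Lamb1* was at 0.681 CPM in WT and 9.79 CPM in mgR, a ratio of 14.4 (10.15 to 20.9), with the fibroblast panel at 3470 and 4030 CPM. Within single clusters with at least 50 SMCs of each library, *Lamb1* was higher in mgR in 5 of 5, by ratios of 4.79 to 13.3, with intervals above 1 in 4. Those 4 clusters held only 1, 6, 1 and 2 WT UMIs of *Lamb1*, with upper limits of up to 397. The other cluster held 2 mgR UMIs, so these ratios are imprecise. Most WT SMCs fell in a cluster that held 2922 WT and 60 mgR cells, so clusters and libraries overlapped only in part.

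The laminin α chains of SMCs differed in opposite directions. *Lama4* was at 86.4 CPM (83.9 to 88.9) in WT SMCs, 48.6 CPM (46.7 to 50.6) in mgR SMCs and 67.2 CPM (65.3 to 69.1) in mgR-LOS SMCs, a ratio of mgR to WT of 0.563 (0.535 to 0.592). *Lama5* was at 54.6, 83.5 and 61.7 CPM, a ratio of 1.53 (1.46 to 1.61). *Lama2* was at 28.6, 15.2 and 15.8 CPM, a ratio of 0.530 (0.484 to 0.580). mgR SMCs therefore had less *Lama4* and *Lama2* and more *Lama5* than WT SMCs, with intervals that did not overlap. *Lama4* was lower in mgR in 5 of 5 clusters, by ratios of 0.462 to 0.977 and with intervals below 1 in 4, and *Lama5* higher in 5 of 5, by 1.04 to 1.31 and with intervals above 1 in 2, whereas *Lama2* was lower in 3 of 5.

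Of the SMC integrins, *Itga5* was higher in mgR by a ratio of 1.52 (1.47 to 1.56). It was higher in mgR in only 3 of 5 clusters, by ratios from 0.709 to 1.29, and the call was lost at a mitochondrial limit of 5%, with clusters in place of gates and with CPM computed without mitochondrial, ribosomal and globin genes, down to 1.31. *Itgb3* was lower, at a ratio of 0.629 (0.593 to 0.667), and so was *Itgb8*, at 11.3, 5.77 and 10.6 CPM and a ratio of 0.512 (0.442 to 0.592). Both were lower in mgR in 5 of 5 clusters, *Itgb3* at ratios of 0.524 to 0.955 and *Itgb8* at 0.264 to 0.962, but for each gene the interval lay below 1 in only 2 of the 5. At the mitochondrial limit of 5% *Itgb3* had a ratio of 0.679 and *Lama5* of 1.30, and with the mean of cells *Lama2* had a ratio of 0.713, so these calls were lost. Those of *Itgb8*, *Lama4* and *Lamb1* were kept under all 10 alternatives that keep the thresholds. At a minimum of 20 CPM, which *Itgb8* and *Lamb1* did not reach, 5 of the 7 calls were kept. *Itga8*, *Itgb1*, *Itga9*, *Itga1*, *Itgb5*, *Itgav*, *Itga3* and *Itga7*, together with the other 4 members compared, stayed within 1.5-fold.

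**Figure D4:**
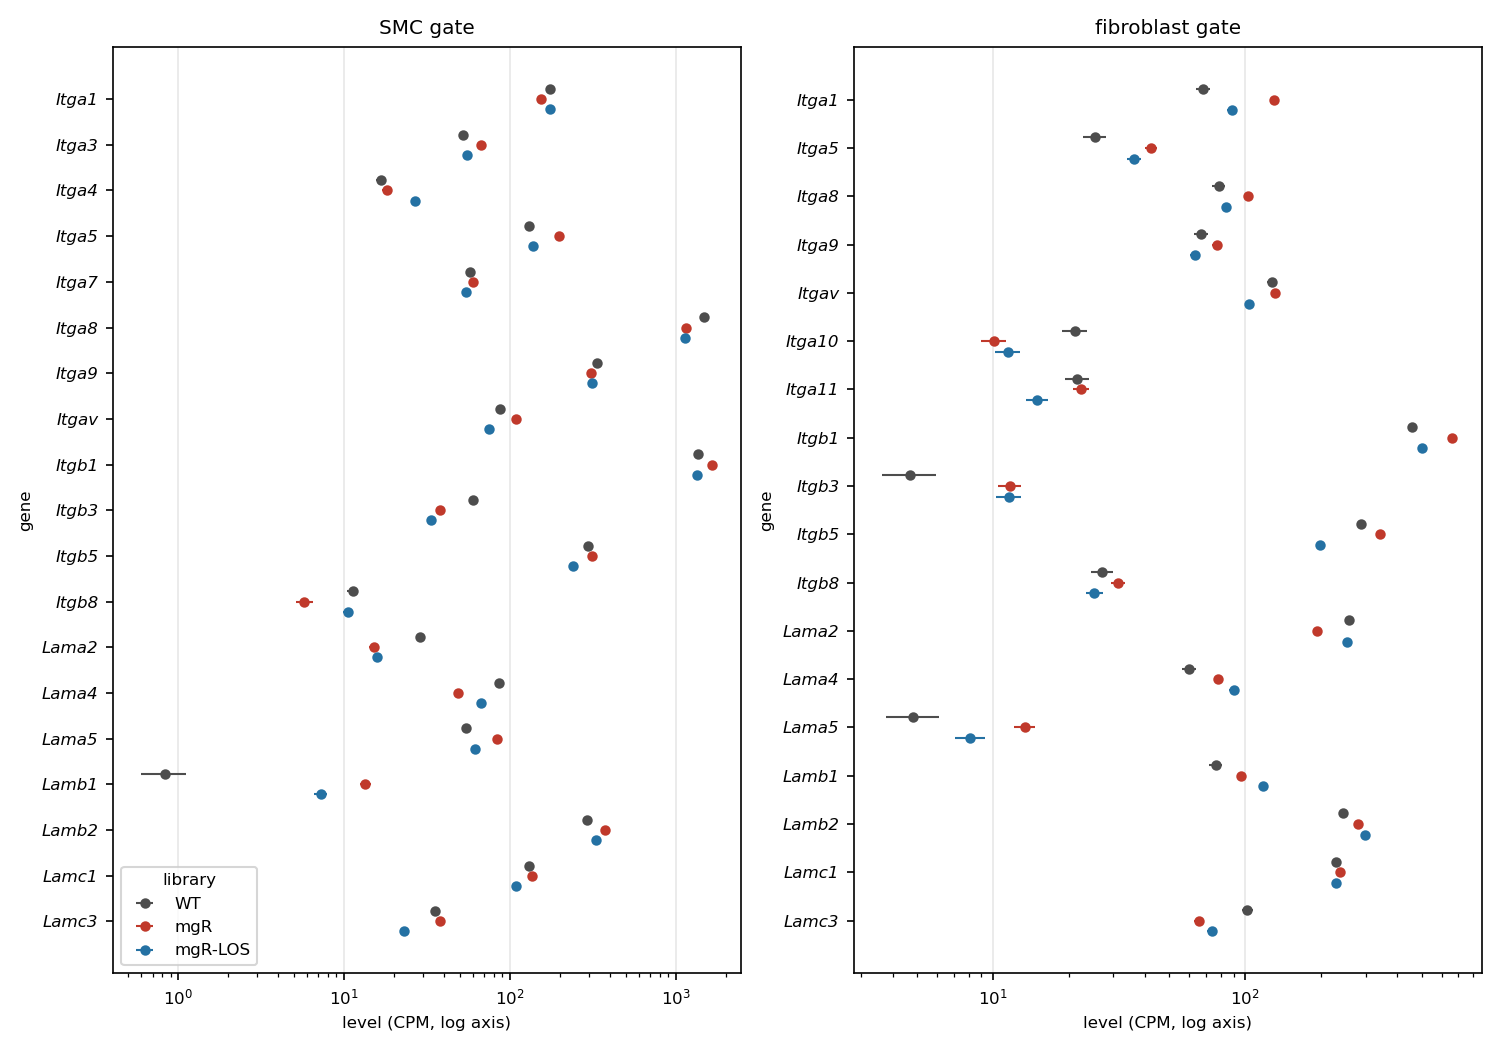
Levels in CPM (log axis) of the members compared in the SMC and fibroblast gates of the WT, mgR and mgR-LOS libraries, with exact 95% Poisson intervals. In SMCs *Lamb1* runs from 0.829 CPM in WT to 13.4 CPM in mgR, and *Itga8* and *Itgb1* lie above 1000 CPM in all 3 libraries.

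In fibroblasts 18 members were compared. The mgR library was higher for *Itga1*, *Itga5*, *Itgb3* and *Lama5* and lower for *Itga10* and *Lamc3*, against 7.07% of 8447 genes called higher and 4.19% called lower. The collagen receptor chains split: *Itga1* was at 67.8 CPM in WT and 130 CPM in mgR, a ratio of 1.92 (1.79 to 2.06), and *Itga10* at 21.1 and 10.1 CPM, a ratio of 0.476 (0.405 to 0.559). *Itga1* was higher in mgR in 6 of 6 fibroblast clusters, by ratios of 1.13 to 4.48. *Itga10* was lower in 5 of 6, but in the clusters that held most of its UMIs its ratio was 0.870 (0.686 to 1.11) and 0.810 (0.594 to 1.096), nearer to 1 than in the whole gate. Fibroblasts of the libraries lay in part in different clusters, among them 1 with 474 WT and 132 mgR cells and 1 with 15 WT and 646 mgR cells. *Itga5* had a ratio of 1.67 (1.49 to 1.88), and was higher in 6 of 6 clusters. *Itgb3* rested on lower levels, 4.70 and 11.7 CPM, with a ratio of 2.49 (1.92 to 3.27). It was higher in mgR in 5 of 6 clusters, at ratios from 0.613 to 2.99, with intervals above 1 in only 2.

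Of the laminins in fibroblasts, *Lama5* was at 4.84 CPM in WT and 13.4 CPM in mgR, a ratio of 2.77 (2.14 to 3.62), and *Lamc3* at 102 and 65.4 CPM, a ratio of 0.641 (0.599 to 0.686). *Lama5* kept its direction in 5 of 6 clusters, with intervals above 1 in 2, and *Lamc3* in 4 of 6, with intervals below 1 in 3. The *Lamc3* call was lost with clusters in place of gates, at 0.668, and that of *Itga5* with a stricter gate, at 1.496. With the stricter gate 17 members were compared and 2 were called higher, so another call higher in mgR was lost too. *Lama2*, the leading α chain, was at 257 CPM in WT and 193 CPM in mgR and was not called. *Itga1*, *Itga5*, *Itgb3* and *Lama5* are all higher in SMCs than in fibroblasts of the WT library, and the SMC panel in the fibroblast gate summed to 1499 CPM in WT and 2376 CPM in mgR. The part of SMC transcripts in these ratios was not tested. The WT fibroblast gate also held red cell transcripts at 623 CPM, against 15.9 CPM in mgR.

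In ECs 17 members were compared, on 101 WT and 185 mgR cells. *Itga1*, *Itga5*, *Itgb5*, *Lama4* and *Lamb1* were called higher in mgR and *Lamc3* lower, while 14.9% of 8988 genes were called higher and 9.82% lower. *Lama4* was at 113 CPM in WT and 229 CPM in mgR, a ratio of 2.03 (1.60 to 2.60), and *Itga1* had a ratio of 1.65 (1.30 to 2.10). *Lamb1* had a ratio of 1.73 (1.22 to 2.49), *Itga5* 1.54 (1.12 to 2.13), *Itgb5* 1.88 (0.946 to 4.08) and *Lamc3* 0.531 (0.174 to 1.62). The last 2 intervals included 1. The fibroblast panel of the EC gate, with 0 of its 8 genes at 0, summed to 1755 CPM in WT, 676 CPM in mgR and 2452 CPM in mgR-LOS, and its part in the ratio of *Lamc3*, a gene led by fibroblasts, was not tested. *Itga5* lost its call under 6 of 10 alternatives, down to 1.28, *Itga1* under 3, down to 1.252, and *Lamb1* under 1, at 1.32, whereas *Lama4* kept it under all 10.

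Lymphatic ECs, the subset with most *Lama4*, made up 12.9% of WT, 27.6% of mgR and 15.5% of mgR-LOS ECs, and the lymphatic panel of the EC gate summed to 1951, 5772 and 3215 CPM. With lymphatic ECs left out, a choice made after the data were seen, the *Lama4* ratio of mgR to WT was 1.22 (0.872 to 1.73) that of *Lamb1* 1.43 (0.911 to 2.29) and that of *Lamc3* 0.793 (0.228 to 2.86), and none was called. *Itga1* remained called without them, at 1.91 (1.49 to 2.48), as did *Itga5* at 1.69 and *Itgb5* at 2.29. *Itga8* at 1.89 (0.853 to 4.60) and *Itgb3* at 2.72 (1.16 to 7.375) were then called higher as well, on 9 and 7 WT UMIs. The *Itga8* interval included 1, and *Itga8* in all ECs lay below the level that SMC marker transcripts there give. Within lymphatic ECs alone, *Lama4* had a ratio of 1.62 (1.12 to 2.41), on 13 WT and 51 mgR cells.

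In macrophages 14 members were compared, on 87 WT and 908 mgR cells. *Itga6* and *Lamb2* were called higher in mgR and *Itgal* lower, beside 13.3% of 7761 genes called higher and 6.65% lower. *Itga6*, a laminin receptor chain, was at 21.8 CPM in WT and 60.4 CPM in mgR, a ratio of 2.78 (1.74 to 4.72). *Itgal* had a ratio of 0.512 (0.331 to 0.821), which ran up to 1.13 under the alternatives. *Lamb2* was at 8.47 and 18.5 CPM, a ratio of 2.18 (1.03 to 5.52), while the SMC panel in the macrophage gate summed to 856 CPM in WT and 1279 CPM in mgR. The fibroblast panel there summed to 195 CPM in WT and 320 CPM in mgR. The part of SMC and fibroblast transcripts in this ratio was not tested. The share of resident-type macrophages, which are low in *Itga6*, was 47.1% in WT and 39.1% in mgR. *Itgam* and *Itgb2* stayed under 1.5-fold, *Itgam* narrowly.

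The second comparison set mgR-LOS beside mgR and asks how the chains differ with losartan. It shares the mgR library with the first, so the directions of the ratios are not independent between them. In SMCs 19 members were compared, and *Itgb8* was called higher and *Lamb1* and *Lamc3* lower in mgR-LOS, with 4.23% of 7690 genes called higher and 3.39% lower. The median log2 ratio of the members was -0.20, against 0.03 over all genes.

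*Lamb1*, at 13.4 CPM in mgR and 7.24 CPM in mgR-LOS SMCs, had a ratio of mgR-LOS to mgR of 0.539 (0.479 to 0.606) and was lower in mgR-LOS in 7 of 8 clusters, with intervals below 1 in 3. In the clusters at least 90% SMC its ratio was 0.556 (0.482 to 0.642). *Itgb8*, at 5.77 and 10.6 CPM, had a ratio of 1.83 (1.59 to 2.11) and was higher in 8 of 8 clusters, by 1.09 to 3.03, with intervals above 1 in 3. The *Itgb8* call was lost without called doublets, with a stricter gate and at a minimum of 20 CPM, where 0 members were called higher. *Lamc3*, at 37.7 and 23.1 CPM, had a ratio of 0.614 (0.574 to 0.657) and was lower in 6 of 8 clusters, but fell short of the threshold with a stricter gate, at 0.669. Its cluster ratios ran from 0.470 to 1.64, with intervals below 1 in 4, and the highest, 1.64 (1.32 to 2.02), was past 1.5-fold the other way. The mgR-LOS level of *Lamb1* remained above the 0.829 CPM of WT, while that of *Itgb8*, at 10.6 CPM, was near the 11.3 CPM of WT. *Itgb3*, *Lama2* and *Itga8* differed by less than 1.5-fold between mgR-LOS and mgR SMCs, and so did *Lama4*, *Lama5* and *Itga5*.

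In fibroblasts none of the 18 members compared was called higher in mgR-LOS and 2 were called lower, *Itgb5* and *Lama5*, with 3.31% of 8390 genes called higher and 3.67% lower. The median log2 ratio was -0.25 over the members and 0.00 over all genes. *Itgb5* measured 342 CPM (mgR) and 198 CPM (mgR-LOS), a ratio of 0.577 (0.558 to 0.597), lower in 6 of 7 clusters, and its mgR-LOS level lay below the 288 CPM of WT. In the remaining cluster *Itgb5* was higher in mgR-LOS, at a ratio of 1.425 (1.21 to 1.68). *Lama5* was at 13.4 and 8.12 CPM, a ratio of 0.607 (0.511 to 0.719), lower in 4 of 7 clusters, and at 0.731, not called, with a looser gate. *Itga1* was at 130 and 88.3 CPM and *Itgb3* at 11.7 and 11.6 CPM, and neither was called.

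In ECs 16 members were compared, on 185 mgR and 148 mgR-LOS cells, beside 10.7% of 8946 genes called higher and 12.4% lower. *Itga3* was called higher, at 25.8 CPM in mgR and 49.1 CPM in mgR-LOS with a ratio of 1.90 (1.23 to 2.97). *Lama4* was called lower at 0.549 (0.445 to 0.672), *Lamc1* at 0.644 (0.508 to 0.813) and *Itgb3* at 0.584 (0.333 to 0.990). *Lamc1* lost its call under 3 of 10 alternatives, at ratios up to 0.673, and *Itgb3* under 1, at 0.723. *Lama4* and *Itga3* kept theirs under all 10. Without lymphatic ECs *Lama4* had a ratio of 1.05 (0.783 to 1.41) and *Lamc1* of 0.757 (0.566 to 1.01), and both were no longer called, while *Itga3* at 1.77 and *Itgb3* at 0.444 still were. *Lama5*, at 0.638 (0.397 to 1.01), was then called lower as well. Within lymphatic ECs alone, *Lama4* was also lower in mgR-LOS. The 51 mgR cells of this subset gave 495 CPM, with interval limits of 434 and 562. The 23 mgR-LOS cells gave 224 CPM, with limits of 161 and 304, so these intervals did not overlap.

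In macrophages 14 members were compared, on 908 mgR and 536 mgR-LOS cells, with 5.4% of 7792 genes called higher and 3.36% lower. *Lamb2* was higher in mgR-LOS, at 18.5 and 28.1 CPM with a ratio of 1.52 (1.17 to 1.97), and *Itga6* lower, at 60.4 and 36.6 CPM with a ratio of 0.606 (0.498 to 0.734). Within single macrophage clusters each kept its direction in 1 of 3, and under the alternatives *Itga6* lost its call once, at 0.779, and *Lamb2* in 2 of 10, at ratios down to 1.46. The SMC panel of the macrophage gate summed to 1279 CPM in mgR and 1537 CPM in mgR-LOS, and resident-type cells were 39.1% and 50.4% of the gate. The fibroblast panel there summed to 320 CPM in mgR and 479 CPM in mgR-LOS. The part of SMC and fibroblast transcripts in the *Lamb2* ratio was not tested.

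**Figure D5:**
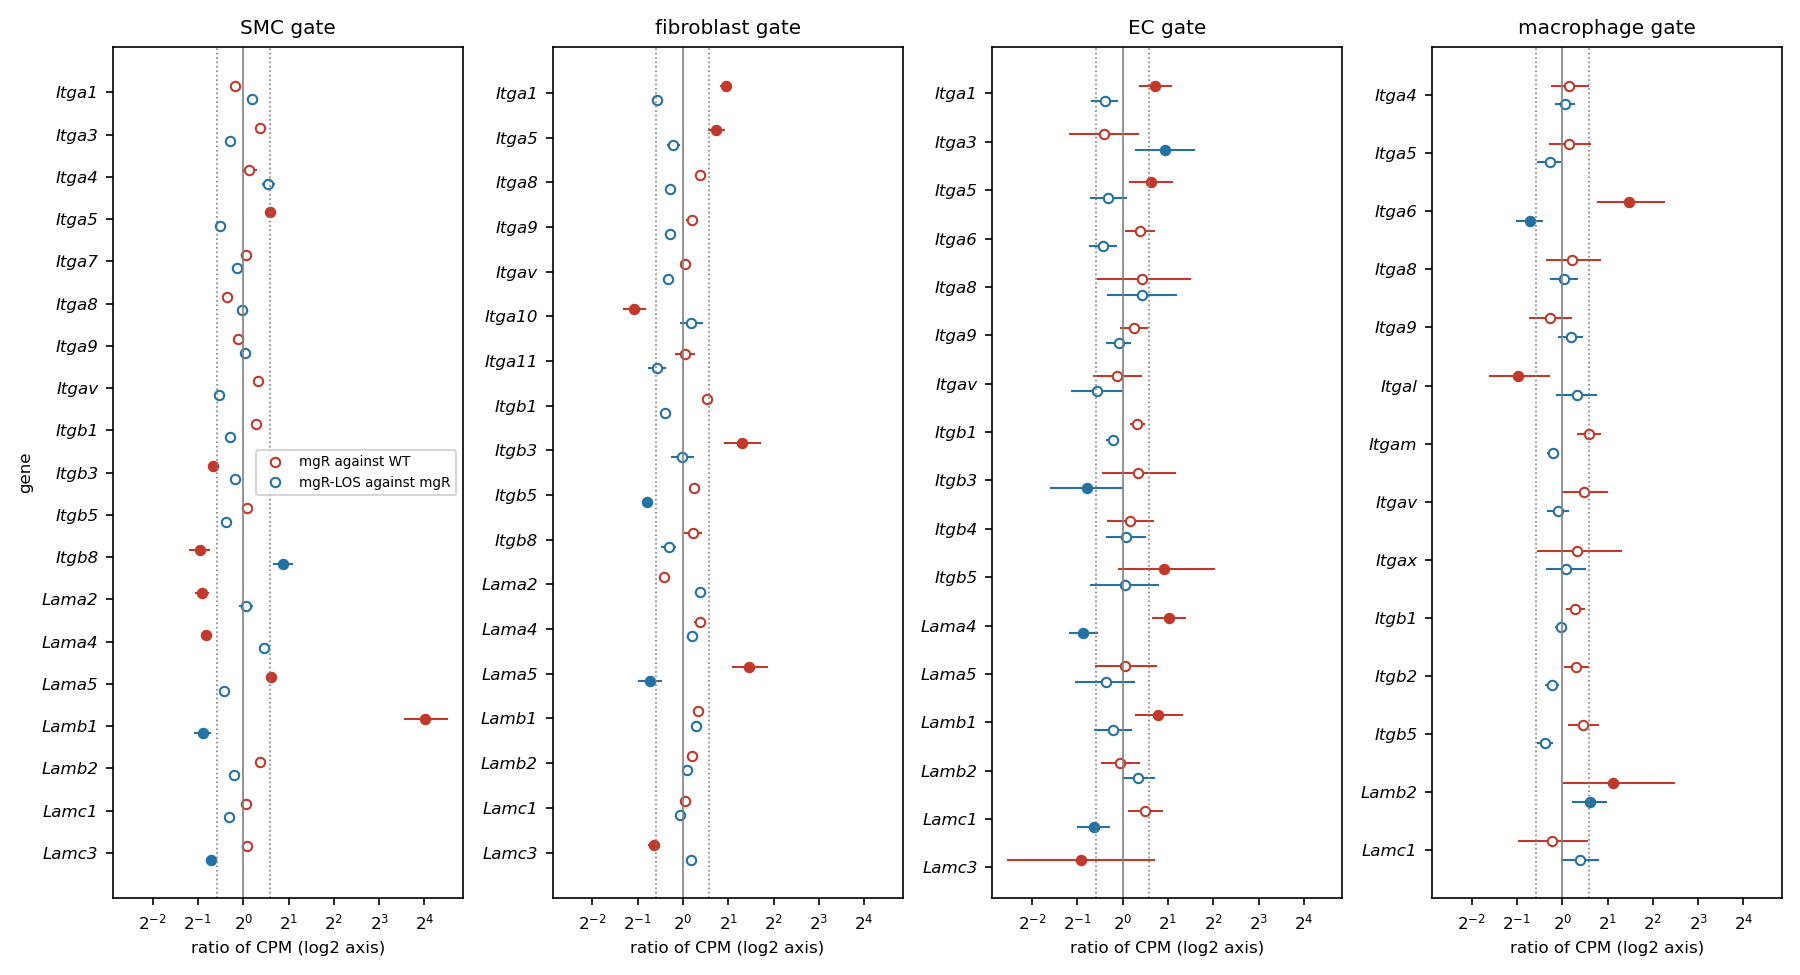
Ratios of CPM (log2 axis) of mgR to WT in red and mgR-LOS to mgR in blue for the members compared in the SMC, fibroblast, EC and macrophage gates, with exact 95% conditional binomial intervals, filled where past 1.5-fold (dotted lines). *Lamb1* in SMCs, at 16.2, lies farthest from 1, and the EC and macrophage intervals are wider than those of SMCs and fibroblasts.

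Partner genes of the same adhesion system were listed by role, and their counts stand beside 5.22% of all genes called higher and 4.06% lower for mgR against WT in SMCs and 4.23% and 3.39% for mgR-LOS against mgR. The lists were chosen with earlier results of these data known, so their counts are no independent test. The ligands include *Vcam1* and *Spp1*, the markers of the SMC subset above. Of the basement membrane partners, proteins that share the sheet with laminin, 7 of 15 compared in SMCs were higher in mgR than WT and 0 lower, with *Smoc2* at 7.34, *Col4a3* at 4.61 and *Col4a4* at 3.91 times the WT level. In mgR-LOS SMCs 6 of 15 were lower than in mgR, among them *Smoc2* at 0.334, *Col4a3* at 0.452 and *Ntn4* at 0.520. Of the integrin ligands, 6 of 13 were higher and 1 lower in mgR SMCs, with *Spp1*, or osteopontin, at 17.9, *Vcam1* at 13.7 and *Thbs1*, or thrombospondin-1, at 9.41, and *Ccn1* lower at 0.550. In mgR-LOS SMCs 8 of 13 ligands were lower than in mgR, among them *Spp1* at 0.0597, *Ccn2* at 0.309 and *Fn1*, or fibronectin, at 0.312. *Vcam1* and *Spp1* together summed to 14.6, 204 and 61.4 CPM in SMCs. *Spp1* passed the 10 CPM limit only in mgR, so both its SMC calls are tied to that limit. The same tie holds for any other partner past the limit only in the library where it was higher. The adhesion adaptors inside the cell were called in 1 of 15 in mgR, *Tns3* at 2.20, and in 1 of 14 in mgR-LOS, *Tns3* at 0.648, and the other laminin receptors in 0 of 10 in either comparison.

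In fibroblasts, where 7.07% of all genes were called higher and 4.19% lower in mgR, and 3.31% and 3.67% in mgR-LOS, 5 of 16 basement membrane partners were higher and 3 lower in mgR, with *Col4a2* at 2.34, *Col4a1* at 2.05 and *Col18a1* at 2.04, and *Col15a1* at 0.413, *Col4a6* at 0.496 and *Col4a3* at 0.522. The integrin ligands *Tnc*, or tenascin-C, at 2.56, *Fn1* at 2.53 and *Npnt*, or nephronectin, at 1.77 led the 5 of 15 that were higher in mgR, and *Tgfbi* at 0.638 was the lower one. Of the adaptors *Tns3* at 1.82 and *Vcl*, or vinculin, at 1.76 were higher, and of the other laminin receptors *Bcam* at 2.09 was higher and *Sdc1* at 0.612 lower. In mgR-LOS fibroblasts *Spp1* at 0.0952, *Tnc* at 0.342 and *Ccn2* at 0.403 led the 5 of 15 ligands below mgR, and *Tgfbi* at 1.99 was above it. *Col4a1* at 0.618 and *Col4a2* at 0.642 were also lower there, *Col15a1* at 1.52 was higher, and *Tns3* was at 0.522.

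Heat-shock genes that respond to dissociation differed between the libraries in every large gate. *Hspa1a* was lower in mgR than WT at 0.410 in SMCs, 0.444 in fibroblasts, 0.538 in ECs and 0.634 in macrophages, and higher in mgR-LOS than mgR at 2.40, 1.955, 2.47 and 1.55. *Hspa1b* was at 0.407, 0.501, 0.663 and 0.672 in mgR against WT, and *Dnajb1* at 0.648, 0.505, 0.724 and 0.414, of which *Hspa1b* in macrophages and *Dnajb1* in ECs were not called. These heat-shock genes belong to a list of 10 dissociation genes. The list summed to 11740, 10040 and 11050 CPM in SMCs and 11370, 11510 and 13120 CPM in fibroblasts. In ECs it summed to 4338, 5226 and 5421 CPM and in macrophages to 10260, 11460 and 10640 CPM. Against the heat-shock direction, *Fos* was called higher in mgR than WT in ECs and macrophages, and *Fosb* in ECs. The part of the heat-shock difference between libraries in the members' ratios was not tested.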

How the data were processed

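UMI counts per gene and cell were analysed as the authors deposited them, from filtered matrices made with Cell Ranger on the mm10 (GRCm38) build. Version 6.0.1 is named in the submitters' processing notes and in the header of the mgR-LOS file, whereas the headers of the other files name 5.0.1. The matrices held 7858, 10657 and 14663 barcodes with 83338726, 123956320 and 121436873 UMIs. A cell passed with 600 to 5000 genes and no more than 10% of UMIs from mitochondrial genes. The members and lists were chosen with earlier results of these data known, and gate thresholds, subset comparisons and comparisons within clusters were set after the data were seen. Each cell was thinned to 1000 UMIs for gating, and 7, 7 and 8 cells below that depth were not gated. Summed UMIs of each gate gave CPM, with intervals from scipy 1.17.1. Cells that a doublet score marked (266, 555 and 1297) were kept, and leaving them out was an alternative. A member was named in a cell type at 20 CPM or more in any library or when past 1.5-fold, except that values resting on fewer than 10 cells are not given and those of the smaller gates and subsets are given for selected genes. From each other list up to 3 genes a direction were named by size of the ratio. Clusters, built without the members, used 2000 variable genes and scikit-learn 1.9.0. Further tools were Python 3.11.15, numpy 2.4.6, pandas 2.3.3 and matplotlib 3.10.9. Gene positions are those of GENCODE on GRCm38. The ratio calculation was tested on simulated data. The values of 1 member are not reported here.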

Additional observations from a re-analysis of the deposited data

Results flagged for a closer look

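A pair of genes had ratios of mgR to WT past 1.5-fold in opposite directions in different cell types. *Itgb3* had a ratio of 0.629 in SMCs and 2.49 in fibroblasts. Its SMC call was lost at a mitochondrial limit of 5%, and in fibroblasts it was higher in 5 of 6 clusters, with intervals above 1 in only 2. *Lama4* had a ratio of 0.563 in SMCs and 2.03 in ECs, the latter falling to 1.22 without lymphatic ECs. With 1 library per condition the difference between cell types was not tested.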

How the results depend on the processing

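No paired analysis was possible because each group has 1 library. Of 1350 recomputed member ratios, 1224 moved by less than their interval, 122 moved by more and 4 changed direction. The 4 were mgR to WT: *Itgb5* in ECs, 0.913 with clusters in place of gates, *Lamc3* in ECs, 1.02 with a stricter gate, and *Itgal* in macrophages, 1.03 with a stricter gate and 1.13 with gates at 2000 UMIs. Of the counts of members called, mgR against WT, 22 in all gates, became 70 with no minimum level and 7 at 2-fold. With no minimum, 38.0% to 49.9% of all genes were called in the 4 gates for mgR against WT and 34.3% to 40.3% for mgR-LOS against mgR. At 2-fold, mgR against WT had 3.91% of all genes called in SMCs, 4.88% in fibroblasts, 9.19% in ECs and 6.98% in macrophages. Its SMC share was 9.28% in the main setting and higher at a mitochondrial limit of 5%. In SMCs 7 became 4 at a mitochondrial limit of 5%, 18 with no minimum and 1 at 2-fold. In fibroblasts 6 became 16 and 3, and in ECs 6 became 18 and 1, under the latter 2 settings. In macrophages 3 became 6 with clusters, 5 with the mean of cells and 18 with no minimum. Of all genes there, 19.9% were called in the main setting, 20.9% with clusters and 23.4% with the mean of cells. For mgR-LOS against mgR, 11 in all became 21 with clusters, 45 with no minimum and 0 at 2-fold. With clusters, 7.71%, 7.25%, 20.2% and 12.9% of all genes were called in SMCs, fibroblasts, ECs and macrophages. The main shares, in the same order, were 7.62%, 6.98%, 23.1% and 8.77%. At 2-fold the shares were 1.79%, 1.84%, 8.03% and 1.91%. In SMCs 3 became 5 at 5% mitochondrial, 1 with a stricter gate, 1 at a minimum of 20 CPM, 9 with no minimum and 0 at 2-fold. In fibroblasts 2 became 4, 4, 1, 8 and 0 under the same 5 settings. Under the first 3 of these, 8.86%, 7.49% and 7.31% of all genes were called in SMCs and 7.15%, 7.2% and 6.44% in fibroblasts. In ECs 4 became 7 with clusters, 7 at a minimum of 5 CPM, 15 with no minimum and 0 at 2-fold. At the minimum of 5 CPM, 27.2% of all genes were called in ECs. In macrophages 2 became 1 with a stricter gate, 4 with a looser gate, 8 with clusters, 1 with CPM without mitochondrial, ribosomal and globin genes, 13 with no minimum and 0 at 2-fold. Of all genes in macrophages, 9.57% were called with the stricter gate, 10.1% with the looser gate and 9.31% with that CPM. Where the alternative lowers the minimum or raises the fold, the change in count follows from its construction, and elsewhere the cause was not tested. Of the 33 calls, 15 kept a ratio past 1.5-fold under every one of 10 alternatives that keep the thresholds, and 18 fell short under at least 1. This count rests on the ratio alone and leaves out calls lost at the 10 CPM limit. Among the 15, that of *Itgb8* in SMCs of mgR-LOS against mgR was lost at that limit without called doublets and with a stricter gate. Another, in fibroblasts of mgR against WT, was lost there with a stricter gate. The *Lamb1* ratio of mgR to WT in SMCs ranged from 13.05 to 16.6 and that of *Lama4* from 0.430 to 0.602, and neither lost its call under the 10 alternatives that keep the thresholds. Without a minimum level the median log2 ratio of mgR to WT over all genes in macrophages shifted by 0.16, to 0.25. The counts of the EC, macrophage and smaller gates rest on few cells, which limits their precision.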
